A study of Mus musculus with 10 samples.

Results

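The hypoxia response genes are 10 genes of the cellular answer to low oxygen: Hif1a, Epas1, Egln3, Vegfa, Adm, Bnip3, Pdk1, Ldha, Pgk1 and Ankrd37. They were taken by gene name from the 24391 gene names counted in each mouse, and all 10 had counts in every mouse and passed the filter on low counts. Whole hippocampi of both sides were collected on day 4 from 10 mice, with 1 RNA-seq library per mouse. All mice were males aged 10 to 14 weeks, of the strain that the study's methods write as C56BL/6J. No drug treatment is described beyond the isoflurane anesthesia of the operated mice. In SAH mice (n = 4) subarachnoid hemorrhage was made on 1 side with a filament that pierced the circle of Willis, the arterial ring under the brain, and only mice whose cerebral blood flow dropped strongly at the puncture were kept. Sham mice (n = 3) underwent the same surgery under isoflurane anesthesia with the vessel left whole, and Naive mice (n = 3) were not operated on. For the main comparison Sham and Naive mice were pooled as control (n = 6). The comparison asks whether transcripts of the hypoxia pathway still differed in the hippocampus, at a distance from the bleed, 4 days after it.

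Cells sense oxygen through hypoxia-inducible factors (HIF), which pair an alpha subunit with the stable partner ARNT. In the presence of oxygen, prolyl hydroxylases of the EGLN family mark the alpha subunit for destruction by the VHL ubiquitin ligase, so that HIF activity is set mainly at the level of the protein and not of its transcript. When oxygen is low the factor accumulates, binds short DNA elements with the core ACGTG or GCGTG, and raises genes for vessel growth, vessel dilation, anaerobic glycolysis and the removal of mitochondria. Transcripts of such genes are widely read as signs of HIF activity, and several also respond to other signals.

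Depth was between 19743388 and 27254655 counts per mouse. Levels are CPM, that is, counts divided by library size and scaled with TMM, which corrects for differences in library composition. The 5 hippocampal marker genes were present in every mouse, with a summed level of 575.5 to 636 CPM in control and 587.6 to 628.1 CPM in SAH. Choroid plexus markers were uneven: the summed level of 7 of them was 47.3 to 69.8 CPM in Naive, 59.4 to 831 CPM in Sham and 105.1 to 1227 CPM in SAH mice. It was highest in SAH mouse 3, and every SAH mouse lay above every Naive mouse. All 6 oligodendrocyte markers were lower in SAH than in control in edgeR's quasi-likelihood test at an adjusted p under 0.10, where 1.54% of all genes were. Higher were 3 of 7 endothelial, 3 of 6 mural, 5 of 6 meningeal fibroblast, 1 of 6 astrocyte and 2 of 6 microglia markers, where 3.13% of all genes were. Of 6 markers listed as infiltrating myeloid 2 were tested, and these 2 were higher. Of the neuronal, hippocampal and choroid plexus markers 0 were called. The 4 globin genes listed as red blood cell markers were at 0 counts in all mice. The other listed marker, Alas2, was at 1.06 to 3.68 CPM in SAH and 1.32 to 2.57 CPM in control. The counting discarded reads with several alignments, which lowers genes with near-identical copies. How many reads the globin genes lost was not tested, so their 0 counts do not show that blood was absent. In whole tissue, fewer cells of a type and less RNA per cell cannot be told apart.

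Promoter sequences are shown first, because all of the 10 but Hif1a and Epas1 are known HIF targets and the sequences let a reader see where the core letters of the HIF element stand. RefSeq windows on GRCm38.p6, from 250 bases before to 50 bases after the transcription start, were matched for 9 of the 10 genes. Epas1 was not matched. ACGTG and GCGTG were searched on both strands, so that CACGT and CACGC are the same cores read from the other strand, and CACGTG counts as an ACGTG match on both strands. Capitals mark the cores, bases run 5′ to 3′ on the gene's strand, and all bases shown lie before the start.
Ldha, chr7:46845726-46845790, plus strand: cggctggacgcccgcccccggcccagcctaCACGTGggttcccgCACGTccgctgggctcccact
Pgk1, chrX:106186920-106186984, plus strand: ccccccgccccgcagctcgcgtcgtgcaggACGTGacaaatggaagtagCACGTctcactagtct
Bnip3, chr7:138909580-138909644, minus strand: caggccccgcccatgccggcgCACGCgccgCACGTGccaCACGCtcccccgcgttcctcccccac
Pdk1, chr2:71873116-71873180, plus strand: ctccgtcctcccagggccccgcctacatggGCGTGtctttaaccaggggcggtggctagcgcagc
Adm, chr7:110627573-110627637, plus strand: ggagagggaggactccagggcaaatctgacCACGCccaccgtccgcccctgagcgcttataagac
Egln3, chr12:54204069-54204124, minus strand: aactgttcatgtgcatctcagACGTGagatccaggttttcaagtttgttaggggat
Ankrd37, chr8:45999851-45999886, minus strand: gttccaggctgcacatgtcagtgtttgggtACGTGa
Hif1a, chr12:73907767-73907831, plus strand: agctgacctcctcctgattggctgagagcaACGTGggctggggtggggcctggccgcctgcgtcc

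At least 1 core was found in the most upstream window of 8 of the 9 genes (88.9%), against 43.8% of the most upstream windows of all 27025 genes in the table. Over all RefSeq windows, ACGTG was in 19.6% and GCGTG in 32.4% of 32851. The glycolytic gene Ldha had the most matches, with 7 in its upstream window, 5 of them before the start, and the mitophagy gene Bnip3 had 5. In both genes CACGTG was counted on each strand, so the separate sites are fewer than the matches. The upstream window of Vegfa held neither core, and its second RefSeq window, chr17:46025114-46025413, held 1 match of each and is not printed. A match is a run of letters and not a measured binding site, and no binding was measured in these mice.

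Levels of the 10 genes spanned a wide range in the hippocampus. Per kilobase of exon, the lactate dehydrogenase gene Ldha was highest, at 126.0 ± 5.05 CPM per kb (SD over all 10 mice), above 97.2% of the genes tested. Pgk1 followed at 57.1 ± 2.65 CPM per kb and Bnip3 at 43.5 ± 2.11 CPM per kb. The alpha subunits came next, Epas1 with 29.8 ± 3.64 CPM per kb and Hif1a with 19.0 ± 0.644 CPM per kb. These levels were above 83.0% and 73.2% of the genes tested. Epas1 was above Hif1a in each mouse, by a ratio per kb of 1.39 to 2.03 in SAH and 1.42 to 1.56 in control mice.

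Pdk1 stood at 12.2 ± 0.596 CPM per kb and Vegfa at 9.89 ± 0.808 CPM per kb. Their ranges over the mice touched, at 11.3 to 13.3 for Pdk1 and 8.78 to 11.3 for Vegfa, although Pdk1 was the higher of the pair in 10 of 10 mice. The 3 lowest were Ankrd37 with 3.29 ± 0.275, Egln3 with 1.88 ± 0.244 and Adm with 0.800 ± 0.274 CPM per kb. Adm, the gene of the vasodilator peptide adrenomedullin, was above only 13.1% of the genes tested. The order of mean levels was the same in SAH, Sham and Naive mice, and Pdk1 and Vegfa were the only neighbours in it whose ranges met.

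**Figure D1:**
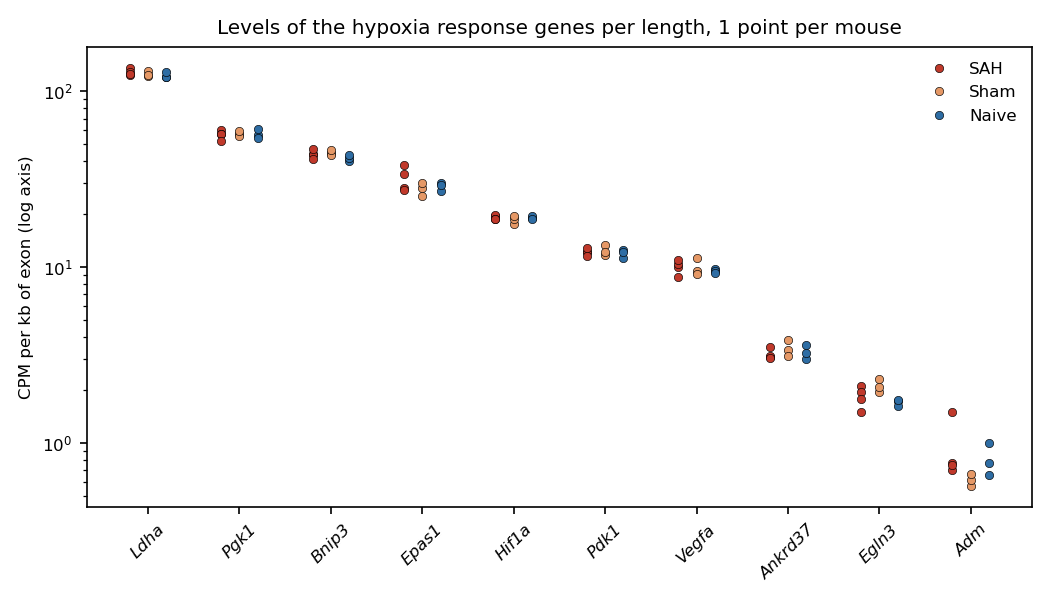
Level of each of the 10 genes per length (CPM per kb of exon, log axis), with 1 point per mouse, coloured by group and ordered by the mean over all 10 mice. Ldha lies near 126 and Adm near 0.8 CPM per kb, and the points of the 3 groups lie on each other for most genes.

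In SAH against control, 0 of the 10 genes passed an adjusted p of 0.10 in edgeR's quasi-likelihood test, 0 had an unadjusted p under 0.05, and DESeq2 called 0. Of all 14993 genes tested, 4.68% were called. The 10 log2 fold changes lay between −0.07 and 0.38, with 7 above and 3 below 0. Their median was 0.02, and the median of their absolute values was 0.05, against −0.002 and 0.08 over all genes tested. In 0 of the 10 genes did the SAH mice lie wholly above or below the control mice, against 5.2% of all genes. The width of the intervals differed among the genes: for 7 of them the 95% interval of the fold change stayed within 1.25-fold in either direction, for Epas1 and Egln3 within 1.5-fold, and for Adm it reached further.

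**Figure D2:**
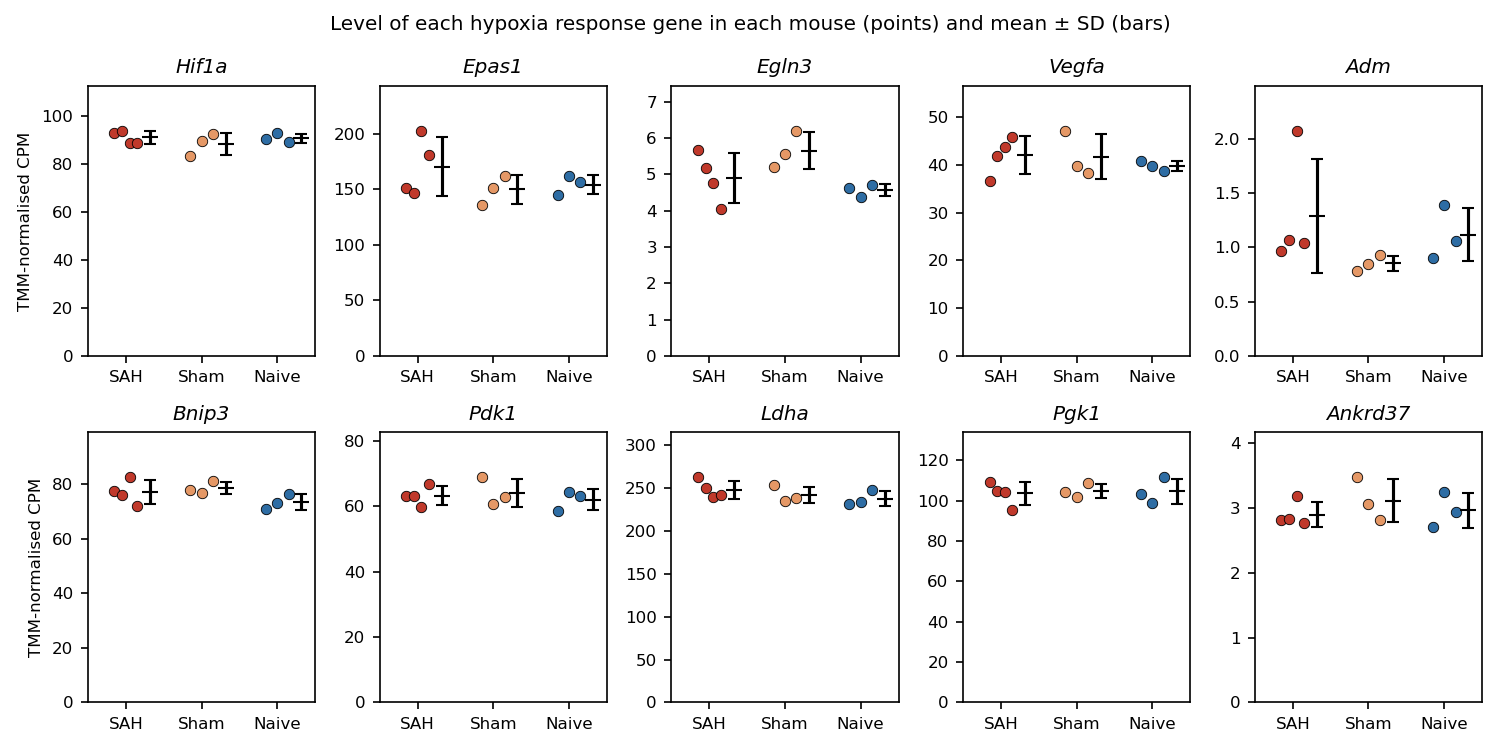
TMM-normalised CPM of each gene in each mouse (points) with the mean ± SD of each group beside them (n = 4, 3 and 3), on axes that start at 0. The groups overlap for most genes, and SAH mouse 3 stands above all other mice for Adm (2.07 CPM) and Epas1 (202.5 CPM).

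Of the oxygen-sensitive alpha subunits, Hif1a (mm9 chromosome 12, 75008854 to 75048517, plus strand) varied least over the 10 mice, with a coefficient of variation of 3.39%. It had 93.2, 93.9, 88.8 and 89.0 CPM in SAH mice 1 to 4, 83.6, 89.7 and 92.7 CPM in the Sham mice, and 90.5, 93.0 and 89.4 CPM in the Naive mice. The 3 groups lay over each other, and the lowest mouse was a Sham mouse. Means were 91.2 ± 2.70 CPM in SAH (SD, n = 4) and 89.8 ± 3.40 CPM in control (SD, n = 6). SAH and control differed by a log2 fold change of 0.02 (SE 0.04, edgeR adjusted p = 0.796), with an interval of −0.06 to 0.11, or 0.958- to 1.08-fold.

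Epas1 (chromosome 17, 87153204 to 87232750, plus strand) encodes HIF-2 alpha, which in the brain is best known from endothelial cells and astrocytes. Its levels were 151, 146.5, 202.5 and 181 CPM in SAH mice 1 to 4. The 6 control mice ranged from 136.2 to 162.1 CPM, with a median of 153.9. SAH mice 3 and 4 were thus above every control mouse, while SAH mice 1 and 2 lay among them. Epas1 had the lowest p among the 10 genes, with 170.4 ± 26.3 CPM in SAH (SD, n = 4) and 152.1 ± 10.2 CPM in control (SD, n = 6), but did not pass the test (log2 fold change 0.16, SE 0.08, interval −0.01 to 0.34, edgeR adjusted p = 0.336).

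Markers of both cell types had wider or higher ranges in SAH. The summed level of the 7 endothelial markers was 98.9 to 178.6 CPM in SAH and 91.0 to 113 CPM in control mice, and that of the 6 astrocyte markers 5213 to 6313 and 5153 to 5636 CPM. Single astrocyte markers differed more than their sum, with log2 fold changes from −0.03 to 1.00 in SAH against control. By edgeR 1 of the 6 was called higher, where 3.13% of all genes were. The part of either cell type in the Epas1 values was not tested. With SAH mouse 3 left out, Epas1 had a log2 fold change of 0.07 (edgeR adjusted p = 0.719).

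Egln3 (chromosome 12, 55279968 to 55304861, minus strand) encodes the prolyl hydroxylase PHD3, an oxygen sensor that is itself a HIF target and so part of a feedback loop. SAH mice 1 to 4 had 5.66, 5.19, 4.75 and 4.04 CPM, Sham mice 5.20, 5.55 and 6.20 CPM, and Naive mice 4.63, 4.37 and 4.71 CPM. The SAH mice spread across both control groups, which did not overlap each other. Against pooled control the log2 fold change was −0.06 (SE 0.13, edgeR adjusted p = 0.828), with an interval of 0.793- to 1.16-fold. Its sign changed with the mouse left out, from −0.14 to 0.02.

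Vegfa (chromosome 17, 46153943 to 46169326, minus strand) encodes the main growth and permeability factor for vessels. It had 36.6, 41.8, 43.7 and 45.9 CPM in SAH mice 1 to 4, 47.1, 39.7 and 38.4 CPM in Sham mice, and 40.8, 39.8 and 38.8 CPM in Naive mice. The highest level was in a Sham mouse and the lowest in an SAH mouse, so that the groups overlapped. The log2 fold change was 0.04 (SE 0.07, edgeR adjusted p = 0.776), and a change beyond 0.928- to 1.15-fold lay outside its interval.

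Adm (chromosome 7, 117771183 to 117773333, plus strand) was the least abundant of the 10, with 19 to 41 counts per mouse. SAH mice 1 to 4 had 0.967, 1.07, 2.07 and 1.04 CPM, Sham mice 0.784, 0.846 and 0.925 CPM, and Naive mice 0.903, 1.39 and 1.06 CPM. SAH mouse 3 was well above the rest, and the next highest was a Naive mouse. Adm had the largest log2 fold change of the 10, 0.38 (SE 0.25, interval −0.16 to 0.91, edgeR adjusted p = 0.462). This value rested on SAH mouse 3, and fell to 0.08 with that mouse left out (edgeR adjusted p = 0.922). That mouse also had the highest choroid plexus marker level, 1227 CPM. With a choroid plexus score as a covariate of the fit, Adm was at 0.28 (edgeR adjusted p = 0.954). The score is the mean log2 CPM of the 7 markers, each centred on its mean over the mice, and not the summed level. All 7 markers had a log2 fold change above 0 in SAH against control. The covariate and the hemorrhage therefore cannot be fully told apart in this fit.

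Of the metabolic genes, Bnip3 (chromosome 7, 146082519 to 146101189, minus strand) encodes a mitochondrial outer membrane protein that starts mitophagy. It had 77.6, 76.1, 82.4 and 71.9 CPM in SAH mice 1 to 4, 77.8, 76.7 and 80.9 CPM in Sham mice, and 70.8, 72.9 and 76.4 CPM in Naive mice. The SAH mice overlapped both other groups, with the highest level in SAH mouse 3 and the lowest in a Naive mouse. Between SAH and control it had a log2 fold change of 0.02 (SE 0.05, edgeR adjusted p = 0.862), with an interval of 0.943- to 1.09-fold.

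Pdk1 (chromosome 2, 71711281 to 71741915, plus strand) encodes a pyruvate dehydrogenase kinase, which switches off the enzyme complex that turns pyruvate into acetyl-CoA in the mitochondria. Its levels were 63.3, 63.1, 59.8 and 66.8 CPM in SAH mice 1 to 4, 68.8, 60.8 and 62.8 CPM in Sham mice, and 58.5, 64.5 and 63.3 CPM in Naive mice. The groups overlapped, and their means were nearly equal at 63.3 ± 2.83 CPM in SAH (SD, n = 4) and 63.1 ± 3.51 CPM in control (SD, n = 6). Its log2 fold change of 0.004 (SE 0.05, edgeR adjusted p = 0.978) was the smallest of the 10, with an interval of 0.931- to 1.08-fold.

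Ldha (chromosome 7, 54101174 to 54110997, plus strand) turns pyruvate into lactate at the end of anaerobic glycolysis. SAH mice 1 to 4 had 262.2, 249.6, 239.0 and 241.3 CPM, Sham mice 252.9, 234.6 and 238.7 CPM, and Naive mice 231.6, 233.8 and 247.5 CPM. SAH mouse 1 was the highest of all, and the other SAH mice lay within the range of control. Ldha had a log2 fold change of 0.05 (SE 0.04, edgeR adjusted p = 0.562), with an interval of 0.975- to 1.10-fold.

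Pgk1 (chromosome X, 103382439 to 103399038, plus strand), the first ATP-forming enzyme of glycolysis, had 109, 105, 104 and 95.5 CPM in SAH mice 1 to 4, 104, 101.5 and 109 CPM in Sham mice, and 103, 98.8 and 111 CPM in Naive mice. The lowest level was in SAH mouse 4 and the highest in a Naive mouse. Its fold change against control had an interval of 0.923- to 1.06-fold. The intervals of Pgk1, Ldha and Pdk1, the 3 genes of glucose use among the 10, all lay between 0.923- and 1.10-fold. The study took Pgk1 as its reference gene for qPCR, partly from its RNA-seq genes without a difference between SAH and control. The flat level of Pgk1 was thus known beforehand.

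Ankrd37 (chromosome 8, 47082262 to 47085204, minus strand) encodes a small ankyrin repeat protein and is a direct HIF-1 target. Its span overlaps Ufsp2 on the other strand, and the counting kept the strands apart. It had 2.81, 2.83, 3.18 and 2.76 CPM in SAH mice 1 to 4, 3.47, 3.05 and 2.82 CPM in Sham mice, and 2.71, 3.24 and 2.93 CPM in Naive mice. The groups overlapped, with the highest level in a Sham mouse and the lowest in a Naive mouse. Against control Ankrd37 had a log2 fold change of −0.07 (SE 0.12, edgeR adjusted p = 0.793), and the interval was wider than for the abundant genes, at 0.801- to 1.14-fold.

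**Figure D3:**
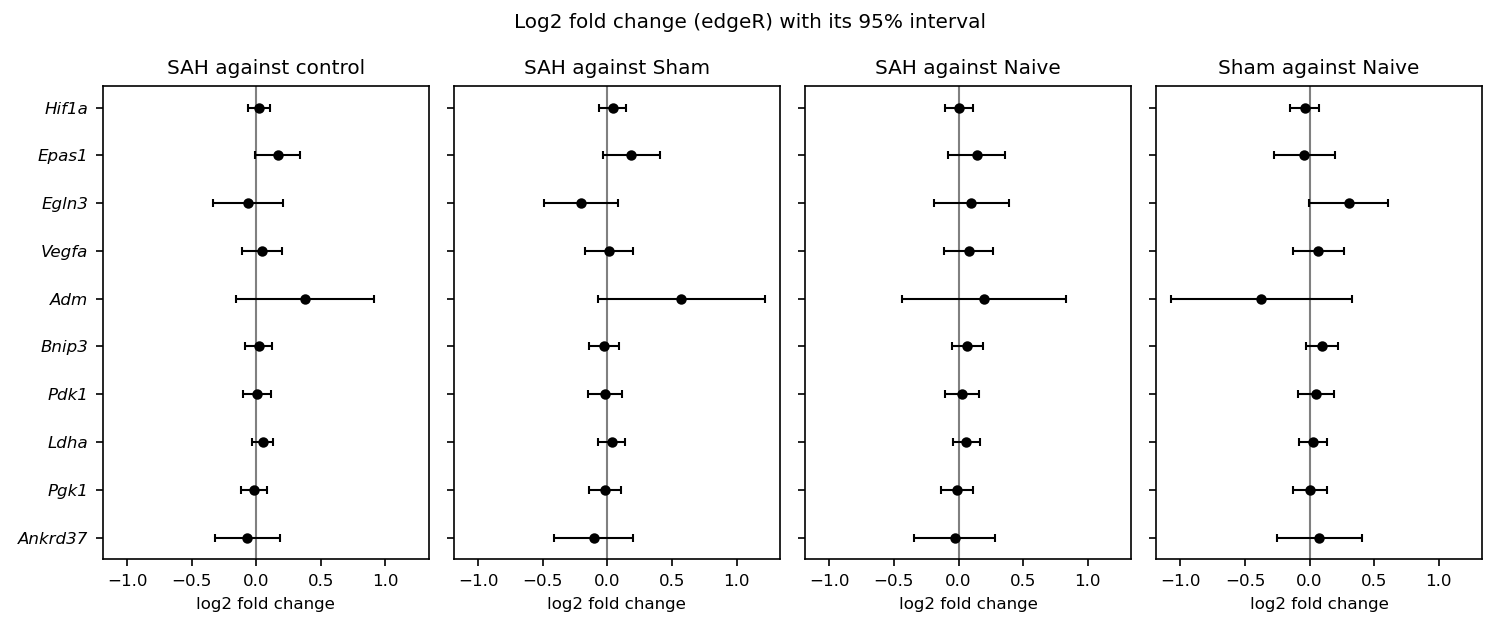
Log2 fold change (points) with its 95% interval (bars) for each gene in the 4 comparisons, from edgeR. Every interval holds 0, and the intervals of Adm are the widest, from −0.16 to 0.91 in SAH against control.

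The pairwise comparisons separate the bleed from the surgery. They share mice: the SAH mice are the same against Sham and against Naive, and the Sham and Naive mice are those of the pooled control. Against Sham, 0 of the 10 genes were called by edgeR, where 0.72% of all genes were, with 0 at an unadjusted p under 0.05 and 0 by DESeq2. Against Naive, 0 of the 10 were called, where 2.99% of all genes were, again with 0 at an unadjusted p under 0.05 and 0 by DESeq2. The 95% interval stayed within 1.5-fold for 9 of the 10 genes in each, all but Adm.

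Adm was the only gene of the 10 whose SAH and Sham mice did not overlap, in a comparison where 9.48% of all genes did not. Its lowest SAH mouse was at 0.967 and its highest Sham mouse at 0.925 CPM, and the raw counts, 20 to 41 in SAH and 19 to 23 in Sham, did overlap. The log2 fold change against Sham was 0.57 (SE 0.30, interval −0.08 to 1.22, edgeR adjusted p = 0.579), and without SAH mouse 3 it was 0.27. Against Naive it was 0.20 (SE 0.29, edgeR adjusted p = 0.785), and −0.10 without that mouse. In SAH against Naive 0 of the 10 genes were free of overlap, against 13.8% of all genes.

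Epas1 was at a log2 fold change of 0.18 against Sham (SE 0.10, edgeR adjusted p = 0.598) and 0.14 against Naive (SE 0.10, edgeR adjusted p = 0.543), close to the pooled value. Egln3 was at −0.21 against Sham (SE 0.13, edgeR adjusted p = 0.649) and 0.10 against Naive (SE 0.13, edgeR adjusted p = 0.765), on either side of 0. The other 7 genes lay between −0.11 and 0.04 against Sham and between −0.03 and 0.08 against Naive.

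Sham against Naive asks what surgery and anesthesia without a bleed left behind at 4 days. Of the 10 genes 0 were called by edgeR, where 0.00661% of all genes were (1 gene), with 0 at an unadjusted p under 0.05 and 0 by DESeq2. Egln3 and Bnip3 were the 2 genes whose Sham mice all lay above all Naive mice, in a comparison where 8.99% of all genes did not overlap. Egln3 had 5.65 ± 0.505 CPM in Sham and 4.57 ± 0.177 CPM in Naive (SD, n = 3 each), a log2 fold change of 0.30 (SE 0.14, interval −0.002 to 0.61, edgeR adjusted p = 1.00). Bnip3 had 78.5 ± 2.20 CPM in Sham and 73.4 ± 2.82 CPM in Naive (SD, n = 3 each), a log2 fold change of 0.10 (SE 0.06, interval −0.03 to 0.22, edgeR adjusted p = 1.00). Neither passed the test.

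Around the 10 genes, 72 further genes of the pathway were listed by role. Of these, 71 were tested in SAH against control. Erythropoietin, Epo, the classic HIF target, failed the filter with 2 counts in SAH mouse 4 and 0 counts elsewhere. By edgeR 5 of the 71 were higher in SAH and 1 was lower, where 3.13% of all genes were higher and 1.54% lower, and 15 had an unadjusted p under 0.05, as had 2549 of the 14993 genes tested. DESeq2 called 6 higher (Angpt2, Edn1, Hmox1, Lox, Nos3 and Pfkl) and 2 lower (Cited2 and Stc1). The median log2 fold change over the 71 was 0.03.

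**Figure D4:**
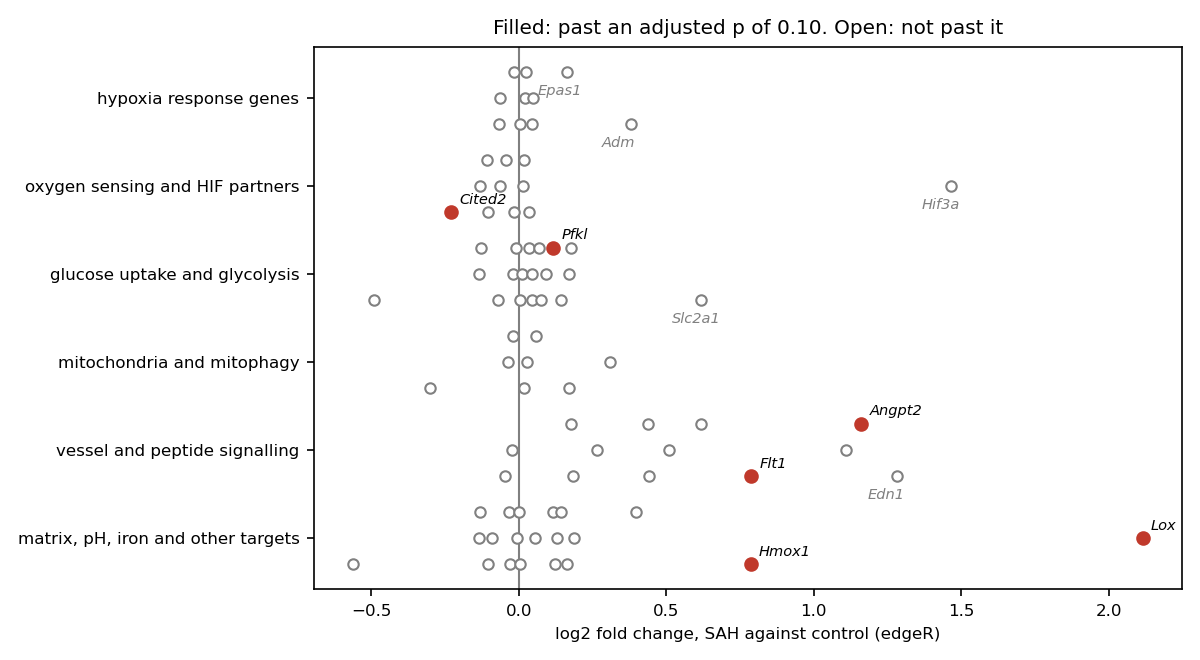
Log2 fold change in SAH against control for the 10 genes (top) and 5 lists of other hypoxia pathway genes, with 1 point per gene, filled where the edgeR adjusted p was under 0.10. The 10 genes gather near 0 with Adm at 0.38, and the filled points are Lox, Angpt2, Hmox1, Flt1, Pfkl and, below 0, Cited2.

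Of the 11 genes of oxygen sensing and HIF partners, which act on Hif1a and Epas1, 0 were higher and 1 was lower, with a median log2 fold change of −0.04. Cited2, which competes with HIF-1 alpha for the coactivators CBP and p300, had 24.8, 25.2, 22.0 and 22.4 CPM in SAH mice 1 to 4 and 26.2 to 29.0 CPM, median 27.8, in control. All SAH mice lay below all control mice, and the log2 fold change was −0.23 (SE 0.06, edgeR adjusted p = 0.0544). The call was lost, at −0.20 (edgeR adjusted p = 0.109), without SAH mouse 3, and also without SAH mouse 4 or any of the 3 Naive mice. With the choroid plexus covariate it was lost too, at −0.15 (edgeR adjusted p = 0.506).

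The remaining sensing genes were not called by edgeR. The HIF partners Arnt and Arnt2 were at log2 fold changes of 0.03 and −0.04. The hydroxylases Egln1 and Egln2 were at 0.02 and −0.02, the ubiquitin ligase subunit Vhl at 0.02 and the asparaginyl hydroxylase Hif1an at −0.11. Siah2, a ligase that removes prolyl hydroxylases, was at −0.13, and the coactivators Crebbp and Ep300 were at −0.11 and −0.06.

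Hif3a, a further alpha subunit with inhibitory isoforms, was uneven among the SAH mice. It had 3.05, 3.20, 30.1 and 6.20 CPM in SAH mice 1 to 4 and 2.39 to 4.96 CPM, median 3.81, in control. Only SAH mice 3 and 4 were above the control range. The log2 fold change was 1.47 (SE 0.54, interval 0.30 to 2.64, edgeR adjusted p = 0.187), and without SAH mouse 3 it was 0.14 (edgeR adjusted p = 0.878). Without SAH mouse 1 or SAH mouse 2, whose levels lay within the control range, it was 1.77 and 1.78 and passed the threshold (edgeR adjusted p = 0.0828 and 0.0765).

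Of the 19 genes of glucose uptake and glycolysis, the pathway that also holds Ldha and Pgk1, 1 was higher and 0 were lower, with a median log2 fold change of 0.04. Pfkl, the liver-type phosphofructokinase, had 256, 262, 276 and 269 CPM in SAH mice 1 to 4 and 239 to 251 CPM, median 245.8, in control. The groups did not overlap, and the log2 fold change was small, 0.12 (SE 0.03, edgeR adjusted p = 0.0866). The call was lost in 8 of the 10 fits that left out a mouse, all but those without SAH mouse 1 or SAH mouse 2. It was also lost without the filter (edgeR adjusted p = 0.116), in the fit of 3 groups (edgeR adjusted p = 0.110) and with the choroid plexus covariate (edgeR adjusted p = 0.536). With SAH mouse 3 left out its log2 fold change came to 0.10 (edgeR adjusted p = 0.187). Eno1 was listed at a low level, and its value is uncertain, since the counting discarded multiply aligned reads and how many Eno1 lost was not tested. In the list of mitochondria and mitophagy, with the kinases and receptors related to Pdk1 and Bnip3, 0 of 8 genes were called and 0 had an unadjusted p under 0.05, with a median of 0.02.

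The vessel list holds the receptors of Vegfa and Adm. Of its 13 genes tested, 2 were higher and 0 lower, 11 had a log2 fold change above 0, and their median was 0.44. Angpt2, a vessel-destabilising ligand that acts with Vegfa, had 3.29, 2.83, 1.31 and 2.32 CPM in SAH mice 1 to 4 and 0.752 to 1.47 CPM, median 1.02, in control. SAH mouse 3 alone lay within the control range. Angpt2 had a log2 fold change of 1.16 (SE 0.25, edgeR adjusted p = 0.0246), and without SAH mouse 3 it was 1.35 (edgeR adjusted p = 0.0026).

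Flt1, the high-affinity receptor of Vegfa, had 27.4, 38.6, 60.4 and 70.3 CPM in SAH mice 1 to 4 and 22.9 to 43.5 CPM, median 26.2, in control. SAH mice 3 and 4 were above all control mice. Flt1 had a log2 fold change of 0.79 (SE 0.23, edgeR adjusted p = 0.0975). The call was lost in 7 of the 10 fits that left out a mouse, those without SAH mouse 3 or 4, any Sham mouse, or Naive mouse 8 or 10. It was also lost under DESeq2 (adjusted p = 0.122), in the fit of 3 groups (edgeR adjusted p = 0.106) and with the choroid plexus covariate (edgeR adjusted p = 0.713). With SAH mouse 3 left out its log2 fold change came to 0.68 (edgeR adjusted p = 0.188). Beside these genes, 3 of the 7 endothelial markers were higher in SAH, and their part in the vessel genes was not tested.

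Of the 20 genes of matrix, pH, iron and other targets, 2 were higher and 0 lower, with a median log2 fold change of 0.03. Lox, the lysyl oxidase that cross-links collagen, had 2.03, 1.36, 3.69 and 0.999 CPM in SAH mice 1 to 4 and 0.289 to 0.552 CPM, median 0.473, in control. Its groups did not overlap, and its log2 fold change of 2.12 (SE 0.34, edgeR adjusted p = 0.00574) was the largest of all 81 hypoxia genes tested. Hmox1, the enzyme that breaks down heme, had 8.37, 6.84, 13.7 and 8.99 CPM in SAH mice 1 to 4 and 4.82 to 6.40 CPM, median 5.24, in control. These groups did not overlap either, at a log2 fold change of 0.79 (SE 0.16, edgeR adjusted p = 0.0191). Without SAH mouse 3 both calls held, at 1.67 for Lox (edgeR adjusted p = 0.0033) and 0.56 for Hmox1 (edgeR adjusted p = 0.0149). With the choroid plexus covariate the Hmox1 call was lost, at 0.55 (edgeR adjusted p = 0.253), and the Lox call held, at 1.94 (edgeR adjusted p = 0.0629). Meningeal fibroblast markers had a summed level of 98.8 to 171.5 CPM in SAH and 87.0 to 118.5 CPM in control mice. Mrc1 and Cd163, known from macrophages at the borders of the brain, were higher in SAH, at means of 9.27 and 2.58 CPM against 4.42 and 0.91 CPM in control, while Ccr2, Ly6c2, S100a8 and S100a9 of infiltrating cells did not pass the filter in this comparison. Ccr2 was at means of 0.803 CPM in SAH and 0.14 CPM in control, and in the fit of 3 groups, where it passed the filter, its log2 fold change was 2.32 against Sham and 2.60 against Naive (edgeR adjusted p = 0.217 and 0.103). The part of these cells in the Lox and Hmox1 values was not tested.

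In the pairwise comparisons, edgeR called 1 of the other pathway genes higher against Sham, where 0.529% of all genes were (Lox, log2 fold change 2.32, SE 0.45, adjusted p = 0.057). This call was lost when any 1 of the 6 control mice was left out, while without SAH mouse 3 edgeR called 5 (Angpt2, Edn1, Hmox1, Lox and Tek) and DESeq2 over all mice called 4 (Edn1, Hmox1, Lox and Nos3). Against Naive it called 3 higher (Lox, Angpt2 and Hmox1) and 2 lower, where 2.03% of all genes were higher and 0.965% lower. The lower ones were Cited2 (−0.29, SE 0.06, edgeR adjusted p = 0.0408) and Stc1, the gene of the secreted glycoprotein stanniocalcin (−0.70, SE 0.19, edgeR adjusted p = 0.0989). Of the 5 calls 0 were left without Naive mouse 8, 1 (Angpt2) without Naive mouse 9 or Naive mouse 10, and 2 (Lox and Angpt2) without SAH mouse 4. Stc1 is named here after its values were seen. Against Naive, 2 of 7 choroid plexus and 5 of 6 meningeal fibroblast markers were also called higher, and their part in these calls was not tested. The choroid plexus covariate was fitted only for SAH against pooled control. Between Sham and Naive edgeR called 0 of them, with 1 at an unadjusted p under 0.05, and DESeq2 called 0.

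**Figure D5:**
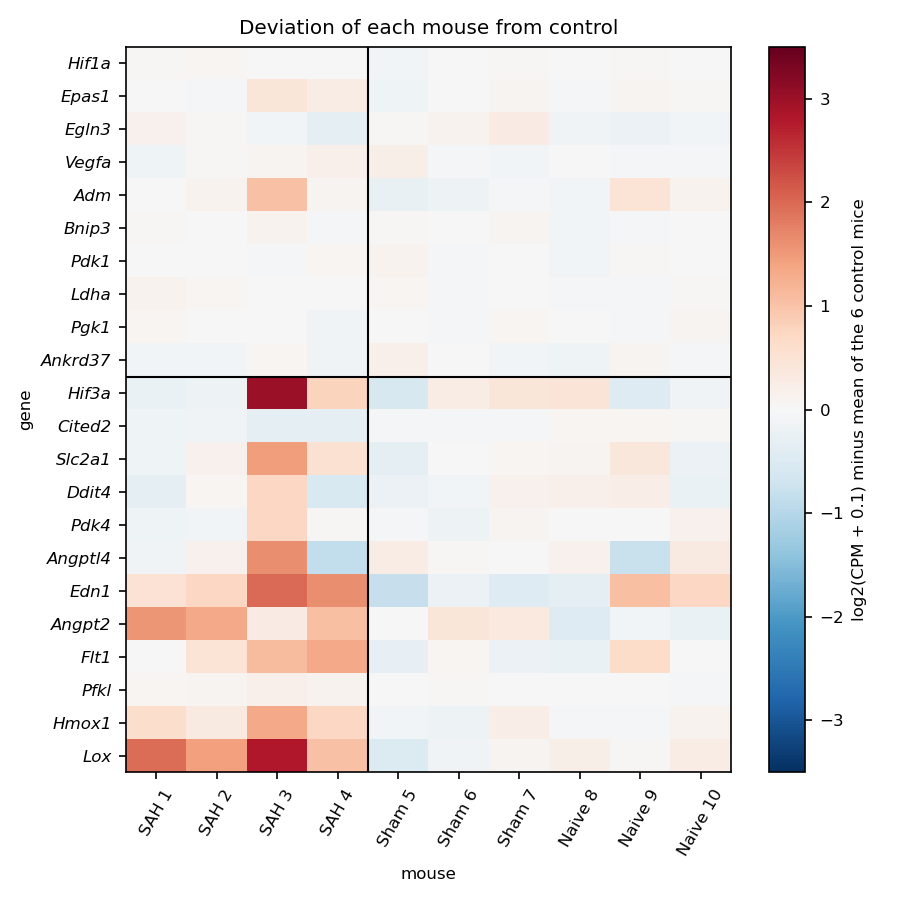
Difference of each mouse from the mean of the 6 control mice, as log2(CPM + 0.1), for the 10 genes (above the line) and 12 other pathway genes, with red higher and blue lower. The rows of the 10 genes are pale, with Adm in SAH mouse 3 the darkest cell among them, and SAH mouse 3 is also the darkest column for Hif3a and Slc2a1.

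SAH mouse 3 stood apart from the other mice over the wider set of hypoxia genes. It had the highest level of all 10 mice for 34 of the 81 hypoxia genes tested (42.0%), against 24.8% of all genes tested. Of the 10 genes it was the highest for 3 (Epas1, Adm and Bnip3), and Sham mouse 5 was also the highest for 3 (Vegfa, Pdk1 and Ankrd37). SAH mouse 3 was the lowest for 13.6% of the hypoxia genes and 26.3% of all genes. Slc2a1, the glucose transporter of the blood-brain barrier, was at 55.8, 68.6, 169 and 89.7 CPM in SAH mice 1 to 4 and at 48.5 to 80.6 CPM, median 63.3, in control. Its log2 fold change was 0.62 (SE 0.24, edgeR adjusted p = 0.211), and 0.20 without SAH mouse 3. Without SAH mouse 1 it was 0.80 and passed the threshold (edgeR adjusted p = 0.0699). Slc2a1 is named here after its values were seen. In the fit with the choroid plexus level as a covariate, 0 of the 10 genes were called by edgeR. Epas1 was then at a log2 fold change of 0.06, Hif3a at 0.33 and Slc2a1 at 0.28, and of the other pathway genes Lox and Angpt2 were called.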

How the data were processed

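RNA-seq libraries from 10 mice were analysed, grouped as labelled. Ribosomal RNA was depleted and strand-specific read pairs were sequenced. The authors aligned them to mm9 with STAR and counted with featureCounts 1.6.2 on the exons of each gene name, so that the deposited values are raw counts, checked here to be whole numbers. Reads with several alignments were discarded by the authors, which lowers genes with near-identical copies.

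CPM were computed here from the counts with TMM scaling. Genes were filtered with filterByExpr (minimum count 10, minimum total 15) and tested with edgeR 4.0.16 in R 4.3.3 (quasi-likelihood test, Benjamini-Hochberg adjustment over all genes tested, threshold 0.10). SAH against control was a fit of 2 groups, and all pairs of groups were compared in a joint fit of 3. The standard error is the log2 fold change divided by the square root of F, and 95% intervals use it. The steps were tested on simulated data. The study's own test, DESeq2 (1.42.0), was an alternative, beside other scalings, other filters, a threshold of 0.05, a fit of only the compared mice, a choroid plexus covariate and each mouse left out. Every pair of libraries differed by more than counting noise, so none was a duplicate. Labels do not number litters or days, so p-values measure the spread between these mice.

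Levels per length used the exon length in the count tables. Promoter windows are those of RefSeq (GRCm38.p6), and other coordinates are mm9. The 10 genes and all lists were chosen with earlier results of these data known. Named beside the 10 were every gene of oxygen sensing, other pathway genes past the threshold in SAH against control or in Sham against Naive, and those failing the filter. Slc2a1, Edn1, Ddit4, Angptl4, Pdk4, Stc1, Tek and Nos3 were named after their values were seen, as was Eno1. A further listed gene is counted with its list and is not reported here. Tables and plots were made in Python 3.11.15 (pandas 2.3.3, numpy 2.4.6, matplotlib 3.10.9, scipy 1.17.1).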

Additional observations from a re-analysis of the deposited data

Results flagged for a closer look

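In 5 of 62 group tests over 31 genes, the highest mouse lay further from the others than Dixon's criterion allows, and chance alone flags about 1 in 20 tests of genes that were not chosen by their values. Slc2a1, Edn1, Ddit4, Angptl4 and Pdk4 were chosen after their values were seen, and Lox, Angpt2, Hmox1, Flt1 and Pfkl were named for passing the test in these mice, so this rate does not apply to them. Of the 5, 2 concerned the 10 hypoxia response genes, out of 20 tests on them. SAH mouse 3 accounted for 3. Adm was at 2.07 CPM in SAH mouse 3, against 0.967 to 1.07 CPM in the other SAH mice. Vegfa was at 47.1 CPM in Sham mouse 5, the highest of the 6 control mice. Hif3a was at 30.1 CPM in SAH mouse 3. The pyruvate dehydrogenase kinase Pdk4 was at 19.9 CPM in the same mouse. Flt1 was at 43.5 CPM in Naive mouse 9, the highest of the 6 control mice.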

How the results depend on the processing

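In SAH against control and in each pairwise comparison, 0 of the 10 hypoxia response genes were called under every alternative that was run and with each mouse left out. No paired analysis was possible because the groups share no replicate numbers. With 19 to 41 counts per mouse, depth limits Adm most. For the single genes named, 977 alternative values kept their direction and their side of the threshold, 31 lost a call, 9 gained it and 50 changed sign. The cause of these changes was not tested.

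With the choroid plexus covariate, SAH against control had 164 genes and 2 other pathway genes called, and log2 fold changes near 0 changed sign: Vegfa −0.019, Bnip3 −0.021, Pdk1 −0.0065, Arnt −0.0007, Egln1 −0.011, Vhl −0.033, Ddit4 −0.10 and Pdk4 −0.020. At an adjusted p under 0.05, 369 genes and 3 other pathway genes were called in SAH against control (701 and 6 at 0.10), 49 and 0 against Sham (109 and 1), and 260.0 and 3 against Naive (453 and 5). DESeq2 called 302 genes and 4 other pathway genes against Sham, 744 genes against Naive, and 2 genes in Sham against Naive (edgeR 1). A fit of only the compared mice gave 12 genes and 0 other pathway genes against Sham, 282 and 2 against Naive, and 3 genes in Sham against Naive. Without the filter, 182 genes and 3 other pathway genes were called against Sham. With at least 10 counts in every mouse, which leaves Lox untested, 0 other pathway genes were called against Sham and 3 against Naive.

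Leaving out each mouse in turn gave 308 to 1093 genes and 3 to 10 other pathway genes in SAH against control, the lowest without SAH mouse 4. It gave 6 to 215 genes and 0 to 5 other pathway genes against Sham, 109 to 683 and 0 to 6 against Naive, and 0 to 1 genes in Sham against Naive. Log2 fold changes that crossed 0 were, in SAH against control, Egln3 −0.14 to 0.022, Vegfa −0.0014 to 0.10, Bnip3 −0.012 to 0.051, Pdk1 −0.023 to 0.032, Pgk1 −0.042 to 0.022, Arnt −0.081 to 0.089, Egln1 −0.023 to 0.045, Egln2 −0.034 to 0.0012, Vhl −0.0075 to 0.039, Ddit4 −0.25 to 0.21, Angptl4 −0.28 to 0.72 and Pdk4 −0.068 to 0.26. Against Sham they were Vegfa −0.042 to 0.11, Bnip3 −0.060 to 0.0036, Pdk1 −0.058 to 0.035 and Pgk1 −0.044 to 0.020. Against Naive they were Hif1a −0.010 to 0.022, Adm −0.099 to 0.37, Pdk1 −0.013 to 0.058, Pgk1 −0.049 to 0.034 and Ankrd37 −0.091 to 0.039. In Sham against Naive they were Hif1a −0.071 to 0.0041, Epas1 −0.10 to 0.024, Vegfa −0.028 to 0.12, Pdk1 −0.0051 to 0.085, Ldha −0.0052 to 0.057, Pgk1 −0.034 to 0.052 and Ankrd37 −0.0059 to 0.14.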

Other observations

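Further genes of the pathway, chosen after their values were seen, were highest in SAH mouse 3. The stress regulator Ddit4 was at 105.5 CPM there, and its log2 fold change in SAH against control was 0.05 with this mouse and −0.25 without it. Angptl4, a lipase inhibitor that responds to fasting and low oxygen, was at 7.63 CPM there, with log2 fold changes of 0.44 and −0.28. Neither gene passed edgeR's test with or without the mouse.

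Edn1, the gene of the vessel-constricting peptide endothelin, had 1.26, 1.51, 3.69 and 2.88 CPM in SAH mice 1 to 4. Sham mice had 0.454, 0.735 and 0.603 CPM, and Naive mice 0.677, 1.90 and 1.49 CPM. SAH and Sham mice did not overlap, while SAH and Naive mice did. The log2 fold change was 1.94 against Sham (SE 0.44, edgeR adjusted p = 0.105) and 1.28 against pooled control (SE 0.39, edgeR adjusted p = 0.107). Against Sham it was called by DESeq2, and by edgeR without SAH mouse 3. Against pooled control it was called by DESeq2 (adjusted p = 0.0462), without the filter (edgeR adjusted p = 0.0931) and in the fit of 3 groups (edgeR adjusted p = 0.0624). It was also called without SAH mouse 1, SAH mouse 2 or Naive mouse 9 (edgeR adjusted p = 0.0597, 0.0694 and 0.0637). It was not called without SAH mouse 3, its highest mouse (log2 fold change 1.00, edgeR adjusted p = 0.2503), or with the choroid plexus covariate (edgeR adjusted p = 0.623).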
